A study of Mus musculus with 18 samples.

Results

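Interferon-stimulated genes are the transcripts that cells switch on when interferon or a nucleic acid sensor signals, and 42 of them were followed in mouse pancreatic cancer lines after knockdown of Gstt1, a glutathione S-transferase. They were chosen by name as interferon regulators, sensors of RNA or DNA, and antiviral effectors. No measured value entered the rule, but earlier results of these data were known when the members were chosen. All 42 were among the 16383 genes of the expression table, and 39 of them, among 12931 genes in all, reached the minimum level for testing. Oas1a, Oas2 and Mx1 did not reach it.

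The study profiled 18 RNA-seq libraries from 6 lines of pancreatic ductal adenocarcinoma (PDAC), each line grown from a spontaneous metastasis of a genetically engineered mouse. Lines 42-3 and 6-2 came from the lung, and lines 42-2, G45-2, 6-3 and 13-2 from the liver. Cells carried a lentiviral NT control hairpin (8 libraries), Gstt1 shRNA 1 (6 libraries) or Gstt1 shRNA 2 (4 libraries). Each knockdown was set against the NT control of its own line, which gave 8 culture sets, because lines 42-3 and 42-2 each have 2 sets, called first and second after their library codes. The genotype labels give p48-Cre and p53F/+ in the first 42-3 set, p48+ and Tp53F/+ in the others, and KrasL/+ in all; p48 is Ptf1a, whose promoter drives Cre in the pancreatic lineage. All lines except 13-2 also carry floxed SIRT6 (SIRT6F/F), in the NT controls as well as in the knockdowns. All cultures were grown in RPMI with 10% serum, selected with puromycin for 48 h and collected after 1 passage. No animal age and no interferon treatment is given in the labels. Each line comes from 1 metastasis, so a line is 1 tumour and not a population of tumours.

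In the interferon pathway, secreted interferons bind surface receptors, whose kinases activate STAT proteins. STAT2 joins a further STAT and IRF9 in a complex that binds the interferon-stimulated response element, a pair of GAAA half-sites set close together, in the promoters of target genes. RNA sensors such as RIG-I (Ddx58) and MDA5 (Ifih1) act upstream of interferon production and are themselves interferon targets. Cultured tumour cells can hold these genes at a low tonic level without any added interferon.

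The promoters of 6 members that the results below turn on are shown to give the reader the regulatory sequence beside the values. Of the 42 members, 33 had an entry among the RefSeq promoters (build GRCm38.p6). In the 250 bases before the start site, both strands were searched for GAAA, any 2 bases and GAAA (TTTC, any 2 bases and TTTC on the other strand). Matches can overlap each other where a half-site is shared. The repeat stood in 12 of the 33 members (36.4%) and in 3.46% of 27025 genes with an entry. The 12 were Stat2, Oas1a, Oas3, Ifit1, Ifit3, Rsad2, Bst2, Isg15, Igtp, Irgm1, Gbp2 and Gbp3. Each line below gives the 160 bases before the start site, 5′ to 3′ on the strand of the gene, with the repeat in capitals.
Isg15 (chr4:156200819-156200978, minus strand): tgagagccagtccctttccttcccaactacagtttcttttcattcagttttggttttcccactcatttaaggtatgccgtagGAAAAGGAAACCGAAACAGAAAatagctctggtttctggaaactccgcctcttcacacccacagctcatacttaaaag
Rsad2 (chr12:26456453-26456612, minus strand): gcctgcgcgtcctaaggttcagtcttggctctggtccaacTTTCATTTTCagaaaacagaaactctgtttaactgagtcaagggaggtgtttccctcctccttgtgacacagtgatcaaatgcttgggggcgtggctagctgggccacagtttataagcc
Ifit1 (chr19:34640729-34640888, plus strand): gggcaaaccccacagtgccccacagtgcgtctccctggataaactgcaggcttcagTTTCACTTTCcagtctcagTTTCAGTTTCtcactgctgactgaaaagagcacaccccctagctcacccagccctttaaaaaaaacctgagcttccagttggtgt
Ifit3 (chr19:34583369-34583528, plus strand): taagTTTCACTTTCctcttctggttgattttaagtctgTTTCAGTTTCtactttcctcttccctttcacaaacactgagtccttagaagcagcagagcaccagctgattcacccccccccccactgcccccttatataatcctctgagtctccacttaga
Bst2 (chr8:71537473-71537632, minus strand): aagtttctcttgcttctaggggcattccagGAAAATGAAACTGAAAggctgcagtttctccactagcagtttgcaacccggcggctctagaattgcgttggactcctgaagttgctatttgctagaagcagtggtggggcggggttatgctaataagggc
Slfn2 (chr11:83064952-83065111, plus strand): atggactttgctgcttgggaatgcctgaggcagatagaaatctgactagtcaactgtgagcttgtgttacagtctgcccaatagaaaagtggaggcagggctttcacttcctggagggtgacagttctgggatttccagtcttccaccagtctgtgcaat
Isg15 had 3 overlapping matches, Bst2 2 overlapping matches, Ifit1 and Ifit3 2 separate ones each, and Rsad2 1. Slfn2 had none, which says only that these letters are not in the 250 bases searched. A match is a description of the letters and was not tested as a binding site.

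Expression was deposited as CPM (read counts scaled to library size), and library totals recovered from these values ran from 8411436 to 25552912 reads. Because 3 reads amount to 0.117 to 0.357 CPM, depending on the library, members below about that level were close to undetected. Gstt1 itself was below its own control in each of the 10 knockdown libraries, at 0.613% to 75.4% of that control. It was high in 2 shRNA 1 libraries, at 75.4% of control in line 6-3 and 54.5% in G45-2, where shRNA 2 left 0.982% and 11.8%. Line 42-2 had little Gstt1 before knockdown, with its NT controls at 2.67 and 0.616 CPM and the knockdowns at 0.373 and 0.0687 CPM, while the controls of the other lines were at 24.3 to 52.5 CPM. Values without both 42-2 sets, a choice made after their levels were seen, are given beside the results. In 5 of the 8 sets (both 42-3 sets, 6-2, the first 42-2 set and 13-2), at least 2 of 7 line identity transcripts (4 Y-linked genes, Xist, Cdkn2a and Cdkn2b) were at least 10-fold apart between control and knockdown, with at least 10 CPM on the higher side. At a limit of 1 CPM the second 42-2 set differed too. Values are therefore also given without these sets. The labels do not say that libraries are separate cultures beyond their line and set. In the knockdown fits, p-values measure the spread of the differences of 10 knockdown libraries from their own controls, in 8 sets from 6 lines. Both knockdown libraries of G45-2 and of 6-3 enter separately, although they share 1 control. Lines 42-3 and 42-2 enter these fits as 2 sets each, taken as independent. Between lung and liver controls, limma p-values measure the spread between line means. Of the markers that define a ductal tumour cell, Krt8 and Krt18 were present in all 18 libraries, at 7.15 to 4113 and 70.8 to 6967 CPM, while Epcam and Krt7 ran from 0.0391 to 264 and 0.0391 to 1984 CPM. The 8 epithelial markers summed to 570.5 to 15210 CPM in NT controls and 411.5 to 7722 CPM in knockdowns. Of 7 leukocyte markers 4 had a row, with Ptprc at 0 to 1.67 CPM, and their sum was 4.35 to 16.6 CPM in NT controls and 1.56 to 30.1 CPM in knockdowns. The 7 fibroblast markers summed to 5.79 to 2917 CPM in NT controls and 4.08 to 6452 CPM in knockdowns. In bulk samples, fewer cells of a type and less RNA per cell cannot be told apart.

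The widest member median of the library pairs compared here lay between NT control libraries of the same line. In the second 42-3 NT control, 26 of the 39 tested members had their highest level of all 18 libraries, against 4.48% of all genes tested, and 32 of 39 had their highest level of the 8 NT controls, against 9.60%. Set against the first 42-3 NT control, 39 of 39 tested members were higher in the second, with a median difference of 2.09 on the log2(CPM + 1) scale, where the median of all 12931 genes was -0.04. The difference reached at least 1 (a doubling of CPM + 1) for 36 of the 39 members, against 5.35% of all genes. There is 1 library on each side, so this contrast has no replicate check and no test. None of the 7 identity transcripts was 10-fold apart between these 2 controls (Cdkn2b at 191 and 101 CPM, Ddx3y at 222 and 98.3 CPM). The 2 libraries carry different library codes.

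**Figure D1:**
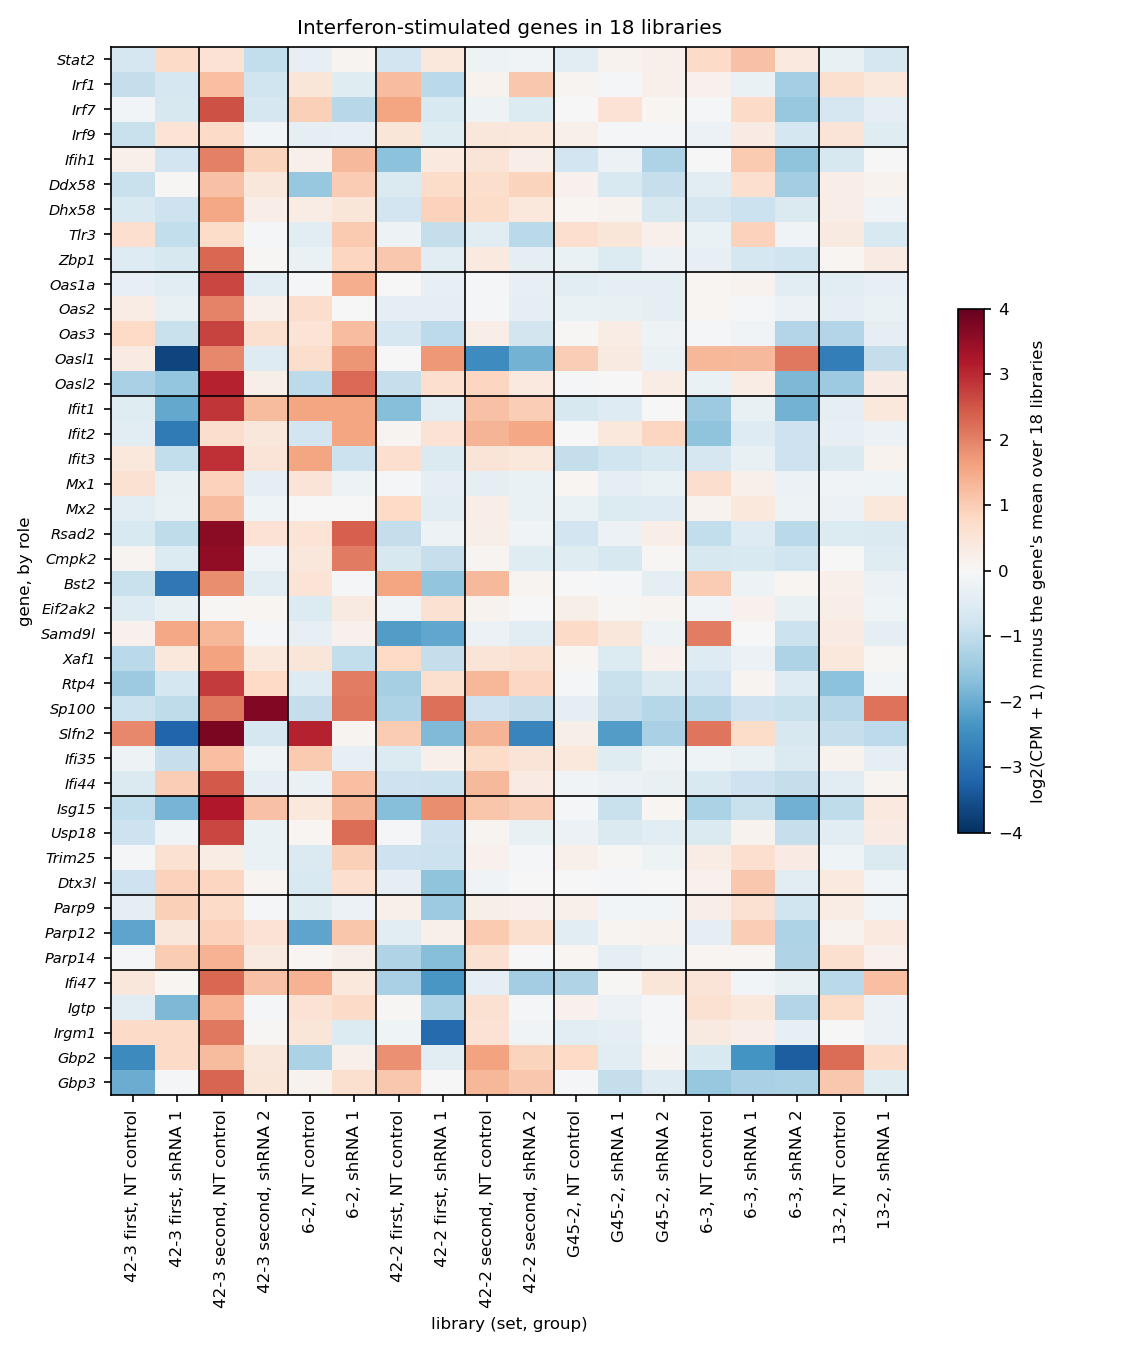
Heat map of 42 interferon-stimulated genes (rows, by role) in 18 libraries (columns, by culture set and hairpin), each cell being log2(CPM + 1) minus the mean of that gene over the 18 libraries. The second 42-3 NT control is the darkest red column and holds the highest level of 26 of the 39 tested members.

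The gaps between the 42-3 controls were widest for 5 members of several roles. Isg15, a ubiquitin-like protein that is attached to other proteins, was at 0.884 CPM in the first control and 33.8 CPM in the second. Rsad2, which encodes the antiviral enzyme viperin, was at 0.368 and 24.4 CPM. Oasl2, an oligoadenylate synthetase-like protein, was at 0.515 and 30.9 CPM, and the guanylate-binding GTPase Gbp3 at 0.147 and 21.8 CPM. Rtp4, which is described below, was at 0.221 and 22.4 CPM. These 5 genes, chosen for the text after their values were seen, are the tested members that differed by more than 4 on the log2(CPM + 1) scale (Oasl2 4.39, Gbp3 4.31, Rtp4 4.26, Rsad2 4.22 and Isg15 4.21). Members that differed by less than 1 were Tlr3 (0.05), an endosomal sensor of double-stranded RNA, Trim25 (0.38), a ubiquitin ligase that acts on RIG-I, and Eif2ak2 (0.57), the kinase PKR. The untested Mx1, a dynamin-like antiviral GTPase, differed by 0.30. Upstream of the members, the interferon receptor subunit Ifnar1 was at 61.6 and 126 CPM, Ifngr1 at 185 and 327 CPM, and the kinase Jak1 at 229 and 262 CPM. The leukocyte markers summed to 13.8 CPM and the fibroblast markers to 13.9 CPM in the second control, both within the range of the other NT controls.

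The 2 NT controls of line 42-2 also differed, in a mixed way. Of the 39 members, 28 were higher and 11 lower in the second 42-2 control, with a median of 0.57 (all genes 0.05). At least 1 higher were 14 members, against 12.6% of all genes. Ifit1, an antiviral RNA-binding protein, was at 0.692 and 11.6 CPM and Isg15 at 0.148 and 7.01 CPM. In the other direction, Irf7, the master regulator of type I interferon production, was at 16.8 and 4.08 CPM, and Oasl1 at 12.8 and 1.39 CPM. Between these controls 1 of the 7 identity transcripts was 10-fold apart.

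**Figure D2:**
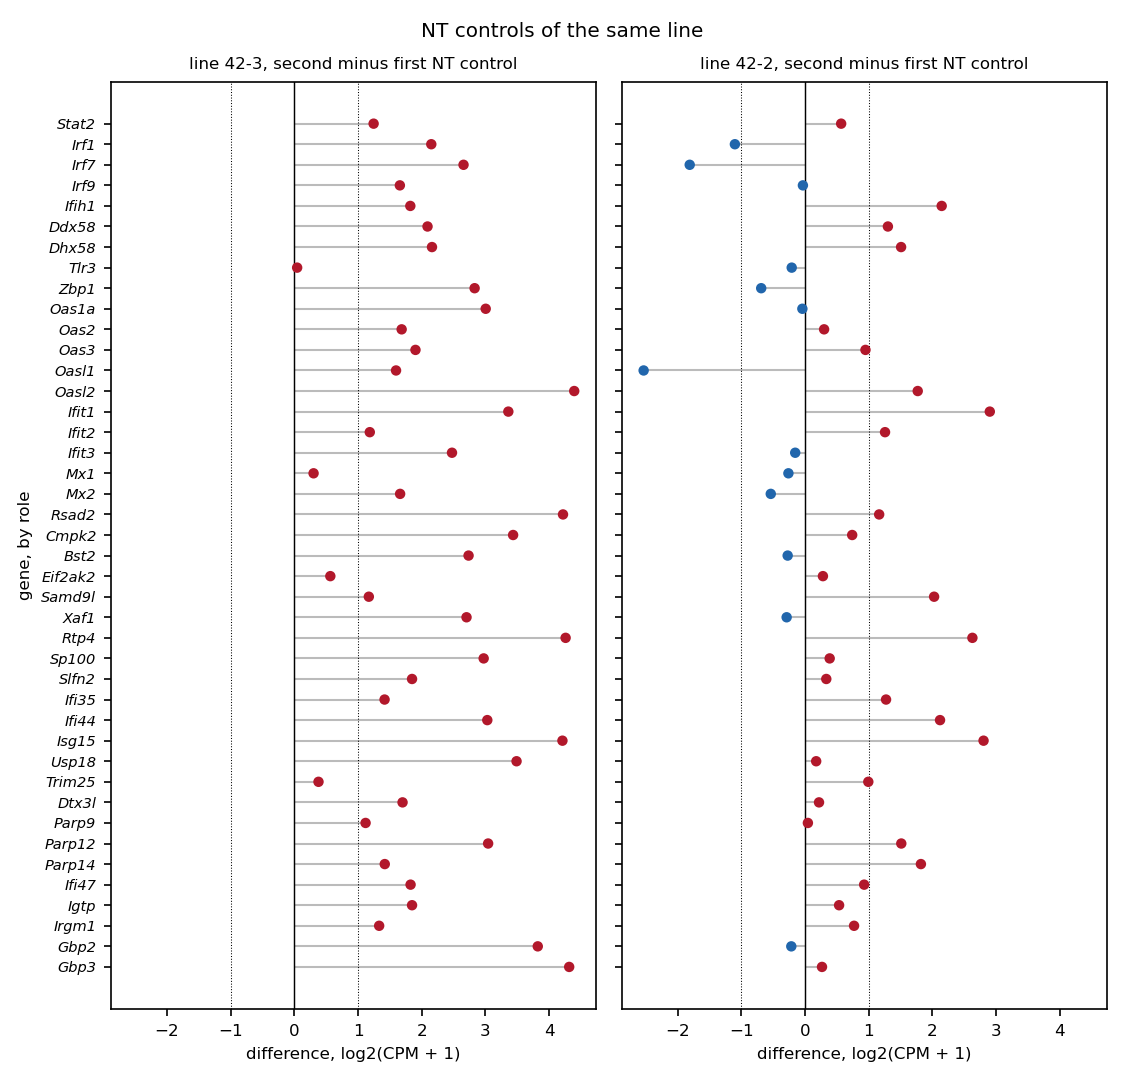
Difference in log2(CPM + 1) between the 2 NT controls of line 42-3 (left) and of line 42-2 (right) for 42 genes, 1 point per gene, with dotted lines at -1 and 1. In line 42-3 the 39 tested members all lie to the right of 0, while in line 42-2 28 lie to the right and 11 to the left.

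Under Gstt1 knockdown, taken as the mean of both hairpin effects against own controls, none of the 39 tested members passed in limma at an adjusted p of 0.05. Across all genes 5 passed (0.0387%). At an unadjusted p under 0.05, 6 members were lower, against 10.1% of all genes, and 1 was higher, against 7.05%. The edgeR test on recovered reads called none of the members either, and 0 genes in all. The median difference over the 39 members was -0.27, with 28 lower and 11 higher, where the median of all genes was -0.03 and 52.98% were lower. The mean of the 8 set medians was -0.26 ± 0.59 (SD, n = 8 sets), and 7 of 8 set medians were below 0. NT control and knockdown levels overlapped for every member, and the share of all genes that overlap was not worked out. Without the second 42-3 set the median was -0.04, with 22 of 37 members lower. Without the 5 sets of differing identity transcripts it was -0.13, with 23 of 31 lower, and -0.13 with 21 of 29 lower without the sixth. Without both 42-2 sets it was -0.29, with 28 of 37 lower, and 0 genes passed in limma (2039 at an unadjusted p under 0.05).

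Of the 8 epithelial markers 7 were lower under knockdown and 1 higher, with a median of -1.16, and none passed in limma, while 4 were lower at an unadjusted p under 0.05. Cdh1, which encodes the adhesion protein E-cadherin, was lower in 8 of 8 sets with a difference of -2.44 (SE 0.65, adjusted p = 0.122). Krt7, a ductal keratin, was lower in 7 of 8 sets with -4.06 (SE 1.001, adjusted p = 0.111). Of 7 fibroblast markers 5 were tested, with 3 lower and 2 higher and a median of -0.07, and none passed in limma. The higher ones were Col3a1 (2.30, higher in 6 of 8 sets) and Pdgfrb (1.19). The lower ones were Col1a1 (-0.07), Col1a2 (-0.15) and Pdgfra (-0.48). The part of the epithelial markers in the members' result was not tested.

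Library codes differed between sets, with few sets for each code. The 3 sets with code CFa8 had member medians of -0.13 (first 42-3), 0.68 (6-2) and -0.38 (first 42-2), a mean of 0.06 ± 0.55 (SD, n = 3 sets). The 2 sets with code CFa11 had -1.46 (second 42-3) and -0.26 (G45-2), a mean of -0.86 ± 0.85 (SD, n = 2 sets), so that 1 set carries the low mean. The second 42-2 set, with code CFa13, had -0.31, and the 2 sets whose control is CFa11 and knockdown CFa12 had -0.06 (6-3) and -0.15 (13-2). The part of the library code in the result was not tested.

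Slfn2, a schlafen family protein that restrains growth and activation of immune cells, had the smallest p of the members. It was at 42.2 and 0.274 CPM in the first 42-3 set (control, then shRNA 1), at 94.2 and 11.3 CPM in 6-2, at 22.1 and 2.31 CPM in the first 42-2 set, and at 5.06 and 4.45 CPM in 13-2. The second 42-3 set had 154 CPM in the control against 6.18 with shRNA 2, and the second 42-2 set 28.1 against 0.825 CPM. In the sets with both hairpins it was at 12.4 (control), 1.44 (shRNA 1) and 3.66 CPM (shRNA 2) in G45-2 and at 49.3, 18.04 and 6.24 CPM in 6-3. All 10 knockdown libraries were below their own control, but the 13-2 and G45-2 controls lay within the range of the knockdowns. The log2 difference was -2.94 (SE 0.48, adjusted p = 0.0552) in limma, and it missed the threshold. The adjusted p was 0.0469 without the set block and 0.0453 with the cell line as the block. Over the 20 alternatives the difference stayed between -3.35 and -2.04 and the adjusted p between 0.0453 and 0.299. With shRNA 1 alone the difference was -2.64 (SE 0.56, adjusted p = 0.1295) and with shRNA 2 alone -3.24 (SE 0.67, adjusted p = 0.641).

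Bst2, or tetherin, which holds budding virus particles at the cell surface, was the other member lower in all 8 sets, as were 2.43% of all genes. NT controls were at 13.9 to 98.3 CPM (median 47.05) and shRNA 1 libraries at 2.82 to 25.5 CPM (median 22.6). The shRNA 2 libraries of 42-3, 42-2, G45-2 and 6-3 were at 19.6, 28.7, 20.2 and 28.1 CPM. The first 42-3 control, at 13.9 CPM, lay below most knockdown libraries, so the groups overlapped. The difference was -1.31 (SE 0.32, adjusted p = 0.111). No member was higher in all 8 sets, as were 1.34% of all genes.

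**Figure D3:**
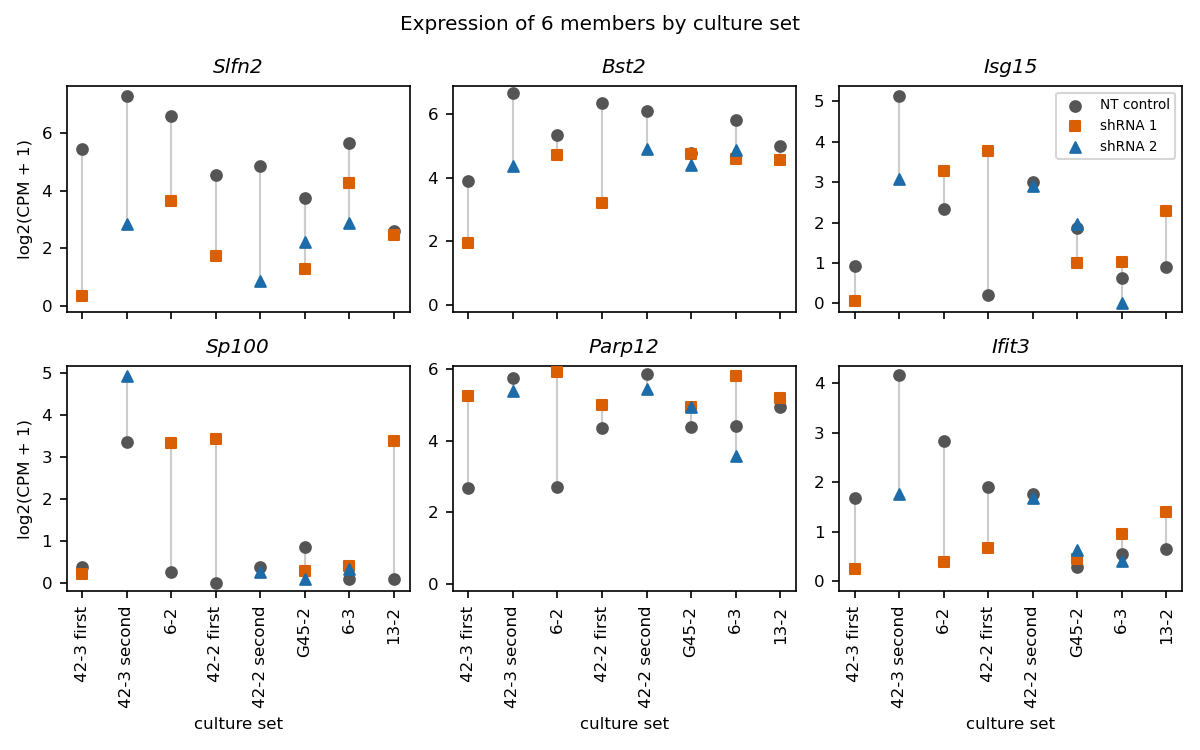
Levels of Slfn2, Bst2, Isg15, Sp100, Parp12 and Ifit3 (vertical axis, log2(CPM + 1)) in 8 culture sets (horizontal axis), with circles for NT controls, squares for shRNA 1 and triangles for shRNA 2, 1 library per symbol. Slfn2 and Bst2 lie below their own control in all 10 knockdown libraries, while Sp100 and Isg15 lie on both sides.

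Among the regulators, 3 of 4 were lower and 1 higher, and none passed. Irf7 was at 2.68 to 33.6 CPM (median 4.83) in NT controls and at 1.74 to 9.06 CPM (median 3.19) with shRNA 1. With shRNA 2 it was at 2.73, 3.02, 5.28 and 1.08 CPM, in the order 42-3, 42-2, G45-2 and 6-3 that also holds for the values below. The high values were the second 42-3 control and the first 42-2 control, and the difference was -1.04 (SE 0.44, adjusted p = 0.259). Irf7 turned to 0.09 without the 5 sets of differing identity transcripts. Irf1, an activator that responds most to interferon gamma, was at 45.6 to 209 CPM (median 111) in NT controls, 41.5 to 120 CPM (median 67.5) with shRNA 1 and 50.2, 188, 102 and 34.1 CPM with shRNA 2. Stat2 was at 11.4 to 35.1 CPM (median 16.2), 12.4 to 46.7 CPM (median 24.8) and 9.75, 18.2, 23.5 and 26.6 CPM in the same order. Irf9, its DNA-binding partner, was at 9.72 to 32.8 CPM (median 23.7), 12.99 to 28.1 CPM (median 16.2) and 17.4, 25.2, 18 and 11.1 CPM. For these 3 genes the groups overlapped widely, with differences of -0.66, 0.14 and -0.24.

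Among the 5 nucleic acid sensors 4 were lower and 1 higher, and none passed. Ifih1 was at 2.27 to 40.01 CPM (median 9.899) in NT controls, 5.01 to 23.7 CPM (median 10.9) with shRNA 1 and 17.9, 11.1, 3.29 and 2.33 CPM with shRNA 2. Ddx58 was at 8.92 to 63.5 CPM (median 25.5), 17.5 to 56.8 CPM (median 37.3) and 38.04, 51.5, 14.1 and 9.904 CPM. For both genes the lowest shRNA 2 library was that of line 6-3, close to the lowest control, and the highest lay within the range of the controls. The knockdown differences were -0.06 for Ifih1 and 0.19 for Ddx58. Tlr3 was at 9.702 to 22.9 CPM (median 14.4), 6.22 to 29.03 CPM (median 13.9) and 13.1, 5.77, 15.7 and 11.98 CPM, and Zbp1, a sensor of Z-form nucleic acid, at 0.221 to 7.68 CPM (median 0.669), 0.0795 to 2.15 CPM (median 0.256) and 0.832, 0.344, 0.497 and 0 CPM. Zbp1 was under 3 CPM everywhere but in the second 42-3 control. Dhx58, which encodes LGP2, a modulator of the RNA sensors, had a difference of -0.17.

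Of the 5 oligoadenylate synthetase genes, whose products signal to RNase L or have lost that activity, 3 were tested, with 2 lower and 1 higher. Oas3 was at 0 to 13.5 CPM (median 1.51) in NT controls, 0.0746 to 4.25 CPM (median 0.8698) with shRNA 1 and 2.497, 0.344, 0.931 and 0 CPM with shRNA 2. Oasl1 was at 1.01 to 50.6 CPM (median 18.7), 0.0783 to 45.1 CPM (median 24.7) and 8.56, 2.68, 10.4 and 58.01 CPM, and Oasl2 at 0.362 to 30.9 CPM (median 1.55), 0.274 to 16.9 CPM (median 3.7) and 3.45, 3.92, 3.601 and 0.0832 CPM. Oasl1 spanned 0.0783 to 58.01 CPM with no order by hairpin, and its highest library was 6-3 with shRNA 2, where Oasl2 was nearly absent. The untested Oas1a exceeded 1 CPM in only 2 libraries, at 7.61 CPM in the second 42-3 control and 2.66 CPM in 6-2 with shRNA 1. Oas2 did so in 2 controls, at 4.11 CPM in the second 42-3 set and 1.07 CPM in 6-2. The Oas, Ifit, Slfn and Gbp families hold near-identical copies, and the separate levels of their members are uncertain because the sources used here do not say how shared reads were counted.

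The IFIT and other antiviral effectors form the largest group, with 15 of 16 tested, 11 lower and 4 higher. Besides Slfn2, the rule for full values named Rtp4, Samd9l and Eif2ak2. Rtp4, a transmembrane protein induced early by interferon, was at 0.0723 to 22.4 CPM (median 1.15) in NT controls, 0.798 to 12.9 CPM (median 2.37) with shRNA 1 and 4.75, 4.88, 1.24 and 1.33 CPM with shRNA 2. Samd9l, which restricts growth and viruses, was at 8.15 to 178 CPM (median 50.6), 9.33 to 126 CPM (median 45.05) and 39.8, 31.4, 36.5 and 22.9 CPM. Eif2ak2 was at 25.4 to 46.3 CPM (median 36.8), 30.96 to 58.2 CPM (median 41.1) and 40.3, 37.7, 41.4 and 30.8 CPM. Eif2ak2 varied least of these, and Rtp4 was low in most libraries and high in the second 42-3 control and 6-2 with shRNA 1. Sp100, a nuclear body protein, had the largest positive difference of all members, 1.11 (SE 0.48, adjusted p = 0.275), and was chosen for the text after its values were seen. Its level was 9.16 CPM in the second 42-3 control and at most 0.806 CPM in the other 7 controls. It was at 29.2 CPM in the second 42-3 knockdown, 9.06 CPM in 6-2, 9.704 CPM in the first 42-2 knockdown and 9.47 CPM in 13-2, and at most 0.318 CPM in the other 6 knockdown libraries. These 4 knockdowns belong to sets of differing identity transcripts. In G45-2, 6-3, the first 42-3 set and the second 42-2 set Sp100 stayed under 1 CPM in control and knockdown alike. Ifi35 was lower in 7 of 8 sets with a difference of -0.57 (SE 0.25, adjusted p = 0.268). Differences of the remaining effectors were -0.11 (Ifit1), 0.30 (Ifit2), -0.74 (Ifit3), -0.37 (Mx2), -0.09 (Rsad2), -0.52 (Cmpk2), -0.45 (Xaf1) and -0.23 (Ifi44), none past the threshold.

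In the ISG15 and ubiquitin group 3 of 4 were higher and 1 lower, with a median of 0.03. Usp18, the protease that removes ISG15 and damps receptor signalling, was at 0.0736 to 11.1 CPM (median 0.737) in NT controls, 0.0746 to 8.04 CPM (median 0.928) with shRNA 1 and 0.594, 0.5499, 0.435 and 0 CPM with shRNA 2. Trim25 was at 55 to 121 CPM (median 102), 53.5 to 192 CPM (median 126) and 81.1, 94.6, 83.99 and 124 CPM, and Dtx3l, a ubiquitin ligase that partners Parp9, at 16.3 to 55.1 CPM (median 28.2), 8.96 to 63.8 CPM (median 37.9) and 31.9, 29.2, 30.1 and 21.6 CPM. In the 2 sets with both hairpins, Trim25 was lower with shRNA 2 than with shRNA 1 in both. Usp18, Dtx3l and Isg15 were lower in 6-3 and higher in G45-2. In the limma fits against own controls all 4 were higher with shRNA 1 (0.31 to 0.64) and lower with shRNA 2 (-0.81 to -0.22), none past the threshold. Isg15 lay below its control in 5 of 10 knockdown libraries and above it in 5. With shRNA 1 it was at 0.884 (control) and 0.0391 CPM in the first 42-3 set, 4.03 and 8.65 CPM in 6-2, 0.148 and 12.5 CPM in the first 42-2 set, and 0.868 and 3.89 CPM in 13-2. With shRNA 2 it was at 33.8 (control) and 7.49 CPM in the second 42-3 set and 7.01 and 6.46 CPM in the second 42-2 set. In the sets with both hairpins it was at 2.65 (control), 1.01 (shRNA 1) and 2.92 CPM (shRNA 2) in G45-2 and at 0.545, 1.03 and 0 CPM in 6-3. By set it was lower in 5 of 8 and higher in 3, with both directions under each hairpin. Its difference was 0.14 (SE 0.48, adjusted p = 0.908).

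Of the 3 poly(ADP-ribose) polymerase family genes, Parp12 was higher under knockdown and Parp9 and Parp14 lower, with differences of 0.63, -0.33 and -0.40. Parp12 was at 5.45 to 56.9 CPM (median 20.02) in NT controls, 29.3 to 59.6 CPM (median 36.1) with shRNA 1 and 40.9, 42.1, 29.6 and 10.9 CPM with shRNA 2. Parp9 was at 21.1 to 51.9 CPM (median 35.2), 10.4 to 59.1 CPM (median 27.8) and 29.2, 34.2, 27.7 and 16.7 CPM, and Parp14 at 4.69 to 33.01 CPM (median 12.9), 3.06 to 25.4 CPM (median 13.4) and 15.8, 11.9, 10.4 and 4.66 CPM. Parp12 was higher than control in each of the 6 shRNA 1 libraries, with a limma shRNA 1 difference of 1.39 (SE 0.40, adjusted p = 0.182), which missed the threshold.

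The 5 interferon-inducible GTPases, which guard against intracellular pathogens, were all lower, with a median of -0.62, and none passed. Igtp (Irgm3) was at 4.05 to 17.2 CPM (median 9.36) in NT controls, 0.978 to 10.9 CPM (median 4.86) with shRNA 1 and 5.59, 5.64, 5.65 and 2.08 CPM with shRNA 2, lower in 7 of 8 sets. Irgm1 was at 28.97 to 173 CPM (median 53.05), 3.73 to 68.2 CPM (median 31.5) and 40.3, 35.7, 37.7 and 30.96 CPM, and Gbp2 at 0.8101 to 48.8 CPM (median 20.96), 1.03 to 17.2 CPM (median 9.14) and 13.7, 18.97, 10.4 and 0.0832 CPM. The low Irgm1 library was the first 42-2 shRNA 1, and the lowest Gbp2 libraries were 6-3 with shRNA 2 and the first 42-3 control. The differences were -0.90 (SE 0.29, adjusted p = 0.168) for Igtp and -0.84 (SE 0.33, adjusted p = 0.227) for Irgm1, with -0.62, -0.18 and -0.35 for Gbp2, Ifi47 and Gbp3. Without the 5 sets of differing identity transcripts Irgm1 was at -0.23 and Igtp at -0.57.

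The hairpins were then compared with each other. With shRNA 1 no member passed in limma, nor did any gene (0% of 12931), with 2077 genes at an unadjusted p under 0.05, and edgeR called 0 with 1751. At that level were 2 members lower and 4 higher, against 8.80% and 7.26% of all genes. The median of the members was -0.05 (all genes -0.01), with 22 of 39 lower, and it turned to 0.06 with 16 of 37 lower without both 42-2 sets. With shRNA 2 the median was -0.61 (all genes -0.05), with 37 of 39 lower where 55.1% of all genes were. Again 0 members and 0% of genes passed, with 834 at an unadjusted p under 0.05 in limma and 742 in edgeR. At that level were 6 members lower and 0 higher, against 4.30% and 2.15% of all genes. The difference between the hairpins, tested directly, had a median of -0.61 over the members (all genes -0.04) and was below 0 for 37 of 39, where 55.5% of all genes were. No member and 0% of genes passed (64 genes at an unadjusted p under 0.05 in limma, 57 in edgeR), and each member had an adjusted p of 0.9999. At an unadjusted p under 0.05 were 4 members lower and 0 higher, against 0.278% and 0.217% of all genes. The most negative differences were Oasl2 (-1.88, SE 0.73), Ifih1 (-1.67, SE 0.51), Parp12 (-1.51, SE 0.55), Ddx58 (-1.36, SE 0.50) and Rtp4 (-1.33, SE 0.62). These contrasts share control libraries, so they are not independent of each other.

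The hairpin difference was also read against other controls and without some sets, and the part of the control in it was not tested. In the second 42-3 set, whose control held the high levels above, shRNA 2 gave a member median of -1.46, with 37 of 39 lower and 28 at least 1 lower, against 12.5% of all genes. Against the first 42-3 control, the same shRNA 2 library was higher in 29 of 39 members, with a median of 0.57 (all genes -0.10). Without the second 42-3 set the shRNA 2 median was -0.28 and the median difference between the hairpins -0.41, with 27 of 37 members lower. With the cell line in place of the set as the block, which averages the 2 controls of a line, it was -0.06 with 23 of 39 lower. Without the 5 sets of differing identity transcripts it was -0.37 with 28 of 31 lower, and without both 42-2 sets -0.70 with 36 of 37 lower.

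**Figure D4:**
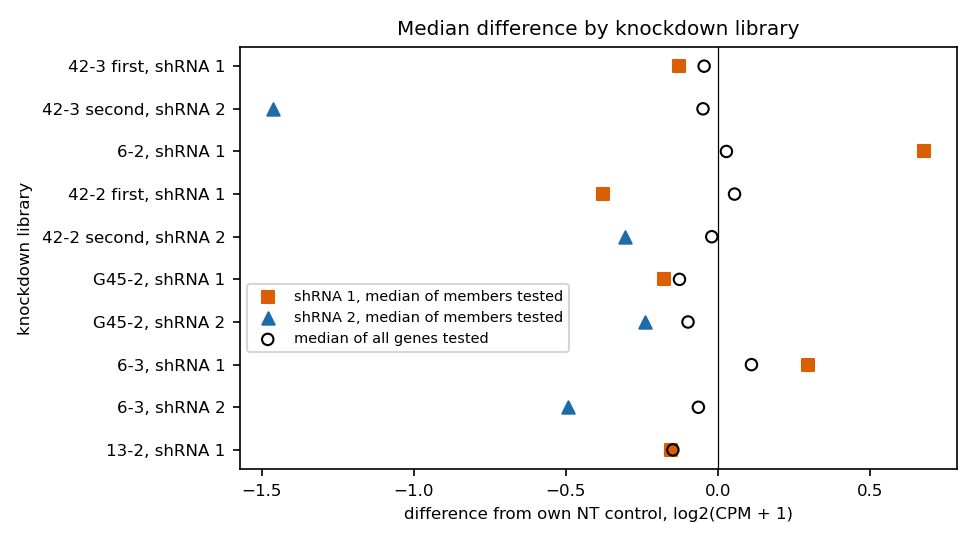
Median difference from the own NT control on the log2(CPM + 1) scale (horizontal axis) over the 39 tested members for each of 10 knockdown libraries, with squares for shRNA 1 and triangles for shRNA 2, and open circles for the median of 12931 genes. The medians run from -1.46 in the second 42-3 set to 0.68 in line 6-2.

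By line, the member medians of the shRNA 1 libraries were -0.13 in the first 42-3 set, 0.68 in 6-2, -0.38 in the first 42-2 set, -0.18 in G45-2, 0.29 in 6-3 and -0.15 in 13-2. Those of the shRNA 2 libraries were -1.46 in the second 42-3 set, -0.31 in the second 42-2 set, -0.24 in G45-2 and -0.49 in 6-3. All 4 shRNA 2 medians were thus below 0, and the shRNA 1 medians fell on both sides. In 6-2, 30 of 39 members were higher with shRNA 1 and 17 were at least 1 higher, against 23.0% of all genes in that library. Oasl2 went there from 0.805 to 16.9 CPM, Parp12 from 5.501 to 59.6, Ddx58 from 8.92 to 56.8 and Usp18 from 1.01 to 8.04. In the opposite direction Irf7 was at 10.5 and 1.74 CPM and Ifit3 at 6.17 and 0.307 CPM. The members of line 6-2 thus lay on both sides of their control, and control and knockdown of this line differ in 6 of 7 identity transcripts.

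Only G45-2 and 6-3 hold both hairpins beside 1 control, and they did not match. In both sets shRNA 1 left more Gstt1 than shRNA 2, at 75.4% against 0.982% of control in 6-3 and 54.5% against 11.8% in G45-2. Hairpin and extent of knockdown thus cannot be told apart in these pairs. In 6-3, 35 of 39 members were lower with shRNA 2 than with shRNA 1, with a median of -0.86 (all genes -0.13), and 17 were at least 1 lower, against 15.9% of all genes. Ifih1 was at 9.199 CPM in the control, 20.03 with shRNA 1 and 2.33 with shRNA 2. In the same order Parp12 was at 20.1, 54.3 and 10.9 CPM, and Irf7 at 4.77, 9.06 and 1.08 CPM. For these genes the control lay between the hairpins. In G45-2, 26 of 39 members were higher with shRNA 2 than with shRNA 1, with a median of 0.18 (all genes 0.03), and 1 was at least 1 lower, against 1.32% of all genes. There Ifih1 was at 4.95, 7.66 and 3.29 CPM and Parp12 at 19.9, 29.3 and 29.6 CPM. Each pair is 1 library against 1, with no replicate check.

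**Figure D5:**
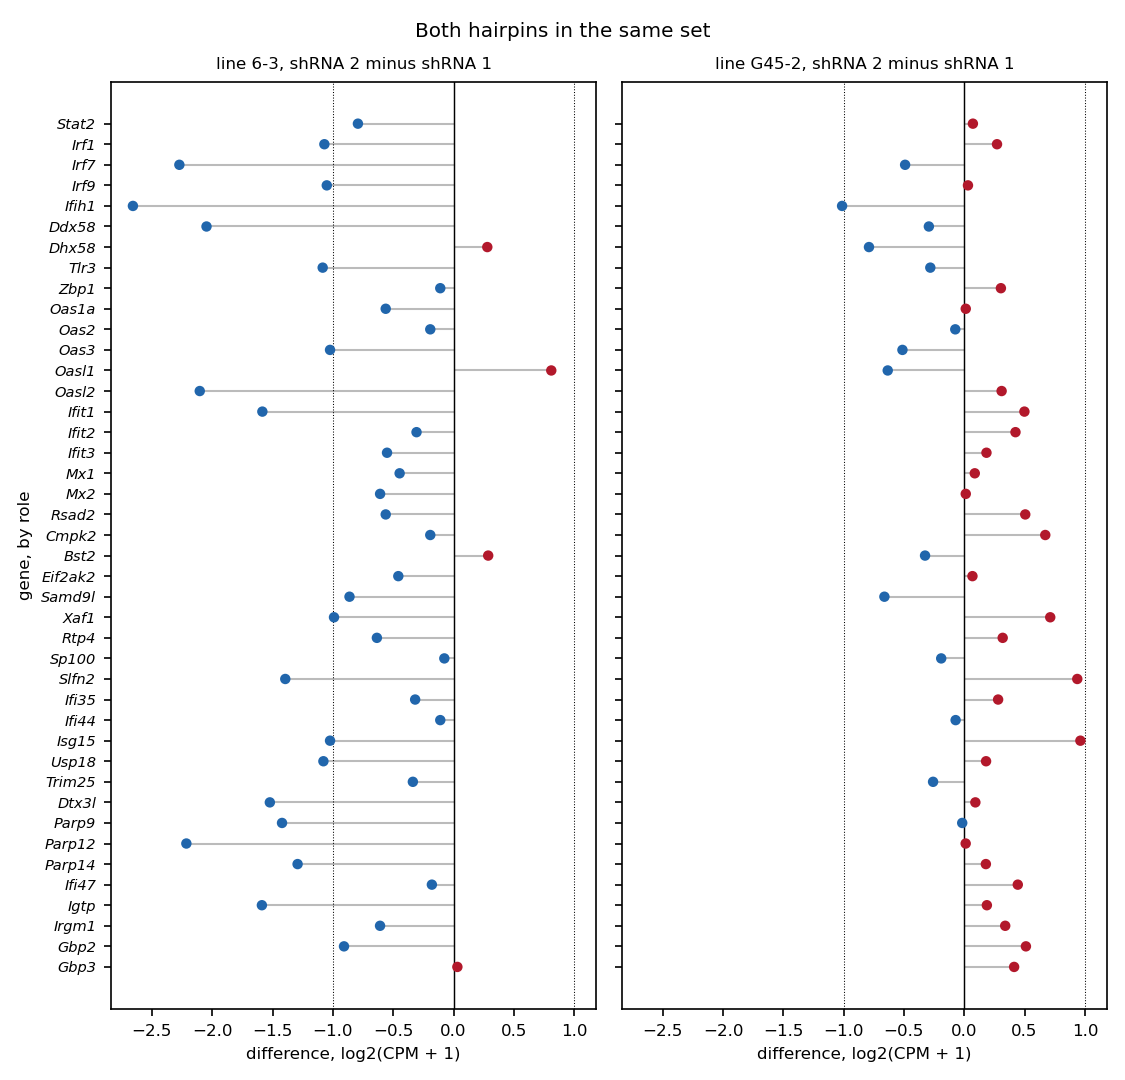
Difference in log2(CPM + 1) between shRNA 2 and shRNA 1 in line 6-3 (left) and line G45-2 (right) for 42 genes, 1 point per gene, with dotted lines at -1 and 1. In 6-3, 35 of the 39 tested members lie to the left of 0, and in G45-2 26 lie to the right.

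Lung and liver lines were compared in the NT controls, on 2 lung and 4 liver line means. Line 13-2, the only line without floxed SIRT6, is 1 of the liver lines, and the part of this genotype was not tested. With 13-2 left out, 0 of 38 members passed in limma. No member passed in limma, and 4 genes in all did (0.0309%). In edgeR the 8 NT control libraries entered as separate samples, and 0 members and 1 gene were called. The members had a median of 0.26 higher in the lung lines (all genes -0.05), with 25 of 39 higher and 14 lower, where 53.96% of all genes were lower. At an unadjusted p under 0.05, 11 members were higher in the lung lines, against 6.43% of all genes, and 2 lower, against 6.65%. The 42-3 mean includes the second 42-3 NT control, which held the highest NT control level of 32 of 39 members. The part of that library in the lung difference was not tested. The largest positive differences were 2.29 (SE 0.76, adjusted p = 0.301) for Slfn2, 2.06 (SE 0.46, adjusted p = 0.185) for Ifit1, 2.04 (SE 0.49, adjusted p = 0.211) for Ifit3 and 2.03 (SE 0.55, adjusted p = 0.239) for Ifi47. Ifit1 controls were at 2.95 and 39.5 CPM in 42-3 and 15.4 CPM in 6-2, and at 0.692 and 11.6 in 42-2, 2.54 in G45-2, 1.02 in 6-3 and 3.33 in 13-2, so that the sites overlapped. Ifi47 passed without line 6-3 (adjusted p = 0.0383). Gbp2 had the largest negative difference, -1.995 (SE 0.77, adjusted p = 0.339).

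The effect of knockdown was also compared between lung and liver sets. The 3 lung sets come from 2 lines and the 5 liver sets from 4 lines, and the fit took sets of the same line as independent. Both knockdown libraries of G45-2 and of 6-3 entered separately beside 1 shared control, and the fit held no term for the hairpin. The liver sets include line 13-2, which lacks floxed SIRT6. No member passed, against 65 genes in all (0.503%), and edgeR called 0 members and 13 genes. Ifit3 came nearest, with -2.08 (SE 0.51, adjusted p = 0.0783) for lung against liver. Its controls and knockdowns were at 2.21 and 0.196, 16.8 and 2.38, and 6.17 and 0.307 CPM in the 3 lung sets. Line 13-2 had 0.579 CPM in the control against 1.62 with shRNA 1, and the first 42-2 set 2.77 against 0.597 CPM. Ifit3 was thus lower in each lung set and went both ways in the liver sets, and it passed without the first 42-2 set (adjusted p = 0.0458). Gbp2 had the opposite sign, with 2.86 (SE 0.81, adjusted p = 0.0998). All 3 lung sets and 2 of the 5 liver sets (first 42-2 and 13-2) are among the sets of differing identity transcripts. Within these 5 sets alone, a comparison added after the values were seen, Ifit3 had -1.84 (SE 0.94, adjusted p = 0.435) and Gbp2 3.18 (SE 1.24, adjusted p = 0.363), and 1 gene in all passed. Without both 42-2 sets Ifit3 had -2.43 (SE 0.49, adjusted p = 0.0734).

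The rest of the interferon pathway was read from lists of genes that are not members. None of 14 interferon ligands has a row, and they were not analysed here. Of 9 receptor and kinase genes 8 were tested, with 7 lower, 1 higher and none past the threshold in limma, and the median was -0.67. Ifngr2, a subunit of the interferon gamma receptor, was lower in 8 of 8 sets with a difference of -1.15 (SE 0.35, adjusted p = 0.155), and its partner Ifngr1 had -1.18 (SE 0.36, adjusted p = 0.157). The kinase Jak2, which serves that receptor, had -0.80 (SE 0.27, adjusted p = 0.176), while the type I receptor subunits had -0.24 (Ifnar1) and -0.57 (Ifnar2) and Jak1 0.04. Of 7 feedback inhibitors 3 were lower and 4 higher, none past the threshold. Socs3, which blocks kinase signalling from cytokine receptors, was lower in 7 of 8 sets, with -1.19 (SE 0.29, adjusted p = 0.111), and Socs1 had 0.15. Of 18 genes of innate sensing 15 were tested, with 10 lower, 5 higher and none past the threshold. Ikbke, a kinase that activates interferon regulatory factors, had -1.02 (SE 0.27, adjusted p = 0.121), its relative Tbk1 -0.06, the adaptor Mavs 0.09 and the adaptor Tmem173 (STING) -0.49.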

How the data were processed

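RNA was sequenced as 18 TruSeq libraries (per the labels), and the authors deposited CPM, which is read counts scaled to the library total, for 16383 genes. Per the submitters' processing notes the build is mm9. The sources used here do not give the aligner, counter, annotation or filter. Deposited CPM values were whole multiples of what 1 read is worth (100% of them within 0.01 reads), and this step gave each library's total. Between any pair of libraries counts differed by more than sampling noise (lowest chi-square 33 per degree of freedom). Listed genes take 98.99% to 99.62% of a library. None of the 32 repeated symbols is a member.

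Testing used limma 3.58.1 in R 4.3.3 on log2(CPM + 1), which understates the change of low genes, for genes reaching 1 CPM in 4 or more libraries. The trend option was on, tests were two-sided, and p-values were adjusted by Benjamini-Hochberg over all genes, with 0.05 as threshold. The culture set entered as a fixed block, since the labels pair libraries by cell line. Knockdown averages both hairpin effects. Lung was set against liver on the mean control of each line in limma, and on separate control libraries in edgeR. The alternatives were edgeR 4.0.16 (quasi-likelihood) on the recovered reads, pseudocounts of 0.5 and 2, no filter, a stricter filter of 5 CPM, rescaling by median ratios, quantile normalization, no block, a cell line block, each set or line left out in turn, and removal of the sets whose identity transcripts differ. Added after values were seen were the count of members lower between the hairpins, fits without both 42-2 sets, and the site difference within the sets of differing identity transcripts.

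Members, gene lists, tests and the naming rule were chosen with earlier results of these data known. In each role list the rule names in full the members of smallest p under knockdown and between the hairpins, and up to 2 more of largest mean CPM (24 members). Bst2, Isg15, Sp100, Ifit3 and the others named outside it were chosen after their values were seen. Promoters come from RefSeq (GRCm38.p6), and the expression table's own build was not used for coordinates. The title codes of line 6-2 are in the reverse order of other sets, and its treatment labels were followed. Python 3.11.15, numpy 2.4.6, pandas 2.3.3, scipy 1.17.1 and matplotlib 3.10.9 made the tables and plots.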

Additional observations from a re-analysis of the deposited data

Results flagged for a closer look

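Within each group of libraries (8 NT controls, 6 shRNA 1, 4 shRNA 2), 126 tests of the members looked for a highest or lowest library set far from the others. Of these, 16 were flagged. The limits used flag about 1 in 20 groups of independent, normally distributed values. CPM values of the members need not be so, and the number expected by chance was not worked out. Among the NT controls all 6 flags were high values of the second 42-3 control. In CPM these were 7.61 (Oas1a), 4.11 (Oas2), 24.4 (Rsad2), 20.9 (Cmpk2), 9.16 (Sp100) and 11.1 (Usp18). The next highest control was at 0.409 CPM for Oas1a and at 2.08 CPM for Rsad2.

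Among the shRNA 1 libraries, line 6-2 stood high for Oas1a (2.66 CPM), Rsad2 (10.1 CPM) and Cmpk2 (6.96 CPM), and line 6-3 for Mx1 (0.477 CPM), which is close to the level of 3 reads. The first 42-2 set stood low for the GTPase genes Ifi47 (1.12 CPM) and Irgm1 (3.73 CPM), and line 6-3 for Gbp2 (1.03 CPM). Among the shRNA 2 libraries, line 6-3 stood low for Oasl2 (0.0832 CPM, against 3.45 to 3.92 CPM in the others) and Igtp (2.08 CPM), and the second 42-3 set stood high for Sp100 (29.2 CPM).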

How the results depend on the processing

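The set block mattered for counts over all genes. Genes called under knockdown numbered 5 with the block, 84 without the replicate block and 51 with the cell line as the block. They numbered 0 without a filter, 0 in edgeR, 0 and 0 without the sets of differing identity transcripts at either limit, 0 without both 42-2 sets, and 0 to 8 when each set was left out. For shRNA 1 they numbered 10 without the block, 2 with the line block and 0 to 2 without each set. Between lung and liver controls they numbered 4, and 2 at a pseudocount of 0.5, 18 without a filter and 14 at a CPM of at least 5. They numbered 8 in limma with controls as separate samples and 1 in edgeR, which also took controls separately. Leaving out each liver line gave 0 to 159. For the interaction they numbered 65, and 109 with quantile normalization, 13 in edgeR, 4 without the block, 1 within the sets of differing identity transcripts and 23 to 122 without each set. Members lower under knockdown numbered 28 of 39, and 18 of 28 at a CPM of at least 5. Members lower between the hairpins numbered 37 of 39, and 23 of 39 with the line block. The interaction could not be fitted without the sets of differing identity transcripts, and the controls of lung and liver were not run under the set block settings.

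Of 24 named members 12 kept 1 sign of the knockdown difference in all alternatives run and 12 did not, and the cause was not tested. The other sign was seen without the sets whose identity transcripts differ (limit 10 CPM) for Irf7 (0.089), Ifih1 (0.0695), Ddx58 (-0.13), Tlr3 (0.053), Oasl2 (-0.095), Rtp4 (-0.15), Eif2ak2 (-0.045) and Trim25 (-0.047). With the limit at 1 CPM the other sign was seen for Irf7 (0.0006), Ddx58 (-0.43), Tlr3 (0.18), Oasl2 (-0.12), Rtp4 (-0.0604), Eif2ak2 (-0.039) and Trim25 (-0.039). With quantile normalization the other sign was seen for Ifih1 (0.18) and Usp18 (0.032). Without both 42-2 sets the other sign was seen for Stat2 (-0.0065) and Oasl2 (-0.0298). With the line as the block the other sign was seen for Ifih1 (0.054). Leaving out each set in turn gave both signs, -0.22 to 0.15 for Ifih1, -0.017 to 0.34 for Ddx58, -0.17 to 0.46 for Oasl2, -0.498 to 0.205 for Oasl1, -0.43 to 0.16 for Usp18, -0.11 to 0.13 for Trim25 and -0.16 to 0.21 for Dtx3l. Depth limits members near 3 reads, which is 0.117 to 0.357 CPM.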
